A study of Homo sapiens with 6 samples.

Results

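The Eph receptors and ephrins described here are 10 genes taken by name from a list that joined the receptors EPHA1, EPHA2, EPHA4, EPHB2, EPHB4 and EPHB6 with the ligands EFNA1, EFNA4, EFNB1 and EFNB2. They were 10 of the 65198 gene rows of the expression table, and the other 12 genes of the human family of 14 receptors and 8 ephrins were read beside them by level. RNA came from MDA-MB-231, a human breast cancer cell line that the labels class as basal-like, in 2 derivatives. In shHOTAIR (Tet-shHOTAIR) a hairpin under tetracycline control targets HOTAIR, a long non-coding RNA encoded in the HOXC cluster, and in shCtrl (Tet-shCtrl) the hairpin, switched on the same way, has a scrambled sequence. Doxycycline was given to both at 1 µg/ml over 96 h, so the drug and an induced hairpin were common to the groups, and each derivative was grown in 3 independent repeats. The labels name 1 derivative and 1 hairpin per group, so the p-values measure the spread between repeats of these derivatives. EPHA1 is a reported HOTAIR-repressed gene, so its level under the HOTAIR hairpin was of interest.

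Eph receptors are receptor tyrosine kinases of the cell surface, and their ligands, the ephrins, are themselves held on the surface of neighbouring cells. The ephrins of the A class are anchored by a lipid and bind mainly EphA receptors, whereas those of the B class span the membrane and bind mainly EphB receptors, with EPHA4 taking ligands of both classes. Contact between cells carrying receptor and ligand starts forward signalling through the receptor kinase and reverse signalling through the ligand, which act on the actin cytoskeleton, adhesion and the sorting of cells. In breast epithelium and breast cancer EPHA2, EPHB4 and EFNB2 are the members most often studied, in migration, vessel formation and tissue patterning.

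Expression was given as FPKM, in which fragments are divided by transcript length and library size, so that levels can be compared between genes of different length. The number of fragments per library is not given. From the steps between low values, a single fragment was worth 0.595 to 0.717 times its FPKM in shCtrl 1 in the shHOTAIR libraries and 0.812 to 1 times in the shCtrl libraries, a smaller worth meaning a deeper library. HOTAIR itself did not exceed 0.0113 FPKM in shHOTAIR or 0.0132 FPKM in shCtrl, so these values cannot show whether the target was lowered. The 6 markers of the line (VIM, CD44, EGFR, KRT18, CAV1 and AXL) summed to 1561 to 1747 FPKM in shHOTAIR and to 1833 to 1950 FPKM in shCtrl, all 6 above 1 FPKM. Within that list VIM was lower in shHOTAIR (393 FPKM against 948 FPKM in shCtrl, group means), EGFR, CAV1, KRT18 and AXL passed the test as higher, with log2 changes of 1.02, 0.90, 0.62 and 0.48, and CD44 did not pass. Of 6 luminal markers KRT19 and FOXA1 reached a mean of 1 FPKM and passed the test as lower in shHOTAIR, and PGR was at 0. The luminal list summed to 33.0 to 37.9 FPKM in shHOTAIR against 46.1 to 59.2 FPKM in shCtrl. The means of ESR1, CDH1 and EPCAM, all far below 1 FPKM, were higher in shHOTAIR. None of 5 leukocyte markers reached a mean of 1 FPKM (sums of 0.392 to 0.829 FPKM in shHOTAIR and 0.839 to 1.58 FPKM in shCtrl). Of 5 endothelial markers 1 did, KDR (2.29 FPKM in shHOTAIR and 1.44 FPKM in shCtrl, group means), which did not pass the test. The endothelial list summed to 2.23 to 3.00 FPKM in shHOTAIR against 1.59 to 1.97 FPKM in shCtrl. The means of PECAM1, CDH5 and TEK were lower in shHOTAIR, and that of VWF was higher. Of 6 fibroblast markers 1 reached a mean of 1 FPKM, COL1A1 (3.51 FPKM in shHOTAIR and 1.33 FPKM in shCtrl, group means). The fibroblast list summed to 3.70 to 4.36 FPKM in shHOTAIR against 1.54 to 2.36 FPKM in shCtrl, while the means of DCN, LUM and COL1A2 were lower in shHOTAIR. The part of these marker differences in the results was not tested.

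In shHOTAIR cells 5 of the 9 members that could be tested rose and 0 fell. They were the receptors EPHA2 and EPHB2 and the ligands EFNA1, EFNB1 and EFNB2, by 1.93-fold to 3.00-fold of the group means. EPHB6, a receptor without kinase activity, was near 0 in shCtrl and above 1 FPKM in every shHOTAIR library. EPHA1, EPHA4, EPHB4 and EFNA4 did not pass the test. The test was limma on log2(FPKM + 1), run where the mean over the 6 libraries reached 1 FPKM and adjusted by Benjamini and Hochberg over 15934 genes at a threshold of 0.05. Of all genes tested 11.5% passed it as higher in shHOTAIR, and 23.8% passed in either direction. The median log2 change was 0.72 over the 9 tested members and -0.03 over all genes tested. The members were chosen with earlier results of these data known, so the counts and median describe this list and do not test the family. Of the family genes outside the list, EPHA3 passed as lower, and EFNA3 and EFNA5 did not pass. The groups did not overlap, with shHOTAIR higher, in the same 5 tested members and in 19.9% of all genes tested. All 9 tested members had a mean above 1 FPKM in both groups, so none entered the test through its higher group alone. The libraries are bulk samples, in which a larger share of expressing cells and more RNA per cell cannot be told apart.

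**Figure D1:**
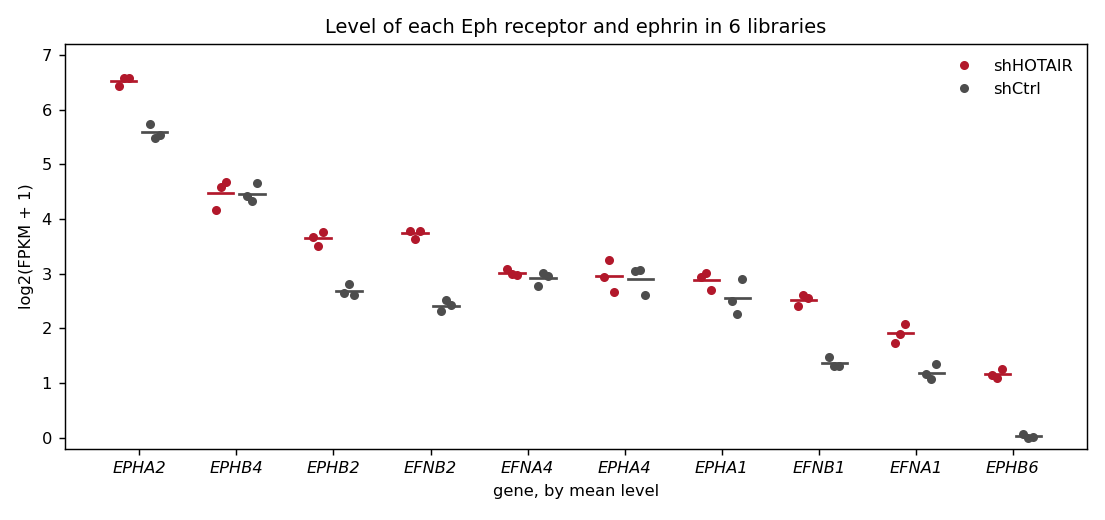
Level of the 10 genes as log2(FPKM + 1) in each library, with shHOTAIR in red at the left and shCtrl in grey at the right of each pair; dots are libraries and bars are group means (n = 3). EPHA2, EPHB2, EFNB2, EFNB1, EFNA1 and EPHB6 show red dots above all grey dots, and the dots of the other 4 genes overlap.

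The promoters of the 6 genes whose groups did not overlap, all higher in shHOTAIR, are shown to place their starts. These 6 were picked by that outcome, and shared regulation was not tested. Each window is the RefSeq reference sequence on GRCh38.p14, with 250 bases before the start and 50 after it, written in the direction of the gene. Capitals mark matches on either strand to the GC box (GGGCGG), the CCAAT box (CCAAT), the cAMP response element (TGACGTCA), the AP-1 element (TGANTCA), the TEAD element (CATTCC), the E-box (CACGTG) and the TATA box (TATAAA). Overlapping matches were each counted.
EPHA2 (chr1:16156020-16156319, minus strand): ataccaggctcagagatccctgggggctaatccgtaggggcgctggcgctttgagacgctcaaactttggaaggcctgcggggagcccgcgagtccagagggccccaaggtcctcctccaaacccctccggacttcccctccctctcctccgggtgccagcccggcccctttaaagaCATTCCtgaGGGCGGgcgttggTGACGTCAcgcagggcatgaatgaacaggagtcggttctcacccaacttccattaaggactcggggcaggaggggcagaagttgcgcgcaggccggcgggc
EPHB2 (chr1:22710589-22710888, plus strand): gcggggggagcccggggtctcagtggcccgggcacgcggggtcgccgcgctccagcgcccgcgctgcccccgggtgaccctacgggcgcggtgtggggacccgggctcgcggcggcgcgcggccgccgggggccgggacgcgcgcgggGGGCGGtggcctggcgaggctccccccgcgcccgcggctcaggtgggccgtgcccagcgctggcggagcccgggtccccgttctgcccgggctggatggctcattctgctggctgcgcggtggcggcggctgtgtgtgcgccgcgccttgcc
EPHB6 (chr7:142862506-142862805, plus strand): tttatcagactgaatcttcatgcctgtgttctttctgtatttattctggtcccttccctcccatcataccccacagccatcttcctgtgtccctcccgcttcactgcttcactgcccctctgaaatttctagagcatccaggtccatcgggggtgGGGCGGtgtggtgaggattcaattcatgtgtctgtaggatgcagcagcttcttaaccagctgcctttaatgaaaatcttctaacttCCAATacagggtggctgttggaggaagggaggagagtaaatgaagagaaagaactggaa
EFNA1 (chr1:155127626-155127925, plus strand): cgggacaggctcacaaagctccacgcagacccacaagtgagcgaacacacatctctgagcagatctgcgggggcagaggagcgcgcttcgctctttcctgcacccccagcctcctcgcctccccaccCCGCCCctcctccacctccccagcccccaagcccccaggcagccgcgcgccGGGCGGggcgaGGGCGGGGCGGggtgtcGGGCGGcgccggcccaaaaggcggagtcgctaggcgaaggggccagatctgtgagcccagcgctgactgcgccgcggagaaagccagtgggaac
EFNB1 (chrX:68828771-68829070, plus strand): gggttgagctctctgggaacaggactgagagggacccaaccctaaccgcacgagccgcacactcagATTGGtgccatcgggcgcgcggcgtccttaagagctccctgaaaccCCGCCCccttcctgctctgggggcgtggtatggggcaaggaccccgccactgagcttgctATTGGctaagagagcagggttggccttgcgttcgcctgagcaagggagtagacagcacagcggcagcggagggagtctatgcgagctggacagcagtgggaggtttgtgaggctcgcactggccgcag
EFNB2 (chr13:106535613-106535912, minus strand): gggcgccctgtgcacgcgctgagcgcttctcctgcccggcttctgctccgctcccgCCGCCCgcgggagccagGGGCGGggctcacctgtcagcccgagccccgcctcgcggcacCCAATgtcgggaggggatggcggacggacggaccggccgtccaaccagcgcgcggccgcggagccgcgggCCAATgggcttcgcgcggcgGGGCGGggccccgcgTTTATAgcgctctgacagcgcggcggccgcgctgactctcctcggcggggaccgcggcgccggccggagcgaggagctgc

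A GC box was found in all 10 member promoters, those of the genes that did not pass included, and in 45.0% of 35116 RefSeq promoter windows of the same length. The EFNA1 window held 5 GC boxes, as did those of EPHA1 and EPHB4, whose genes did not pass. The CCAAT box was in 6 of 10 member promoters and in 34.6% of all windows, and the windows of EFNB1, EFNB2 and EPHA1, the last of which did not pass, each held 2. The EPHA2 window held a cAMP response element and a TEAD element, found in 1.85% and 14.0% of all windows. EFNB2 alone of the 10 had the TATA box letters, which 11.5% of all windows hold. The AP-1 element (7.71% of all windows) and the E-box (7.26%) were in none of the 10. The GC content was 83.0% in the EPHB2 window and 78.7% in that of EFNB2, against a median of 58.7% over all windows. The EPHB6 window had 48.0% GC and 3 CpG sites, where the EFNB2 window had 49. Its RefSeq start lies 7695 bases from the start of the gene in GENCODE 29, so the window may not be the start used in these cells. That of EFNA1 lies 416 bases away, and the others lie within 36 bases of theirs. These matches describe letters in the windows and no binding was measured.

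EPHA2 (ENSG00000142627, chromosome 1, 16124337 to 16156087 on GRCh38, minus strand), the EphA receptor most abundant in these cells, had the highest level of the whole family in every library. Its FPKM was 85.2, 94.9 and 94.5 in shHOTAIR 1, 2 and 3, against 52.6, 43.9 and 45.6 in shCtrl 1, 2 and 3. All shHOTAIR libraries were above all shCtrl libraries. The group means were 91.5 ± 5.48 FPKM in shHOTAIR and 47.4 ± 4.59 FPKM in shCtrl (SD, n = 3 each), and the log2 change was 0.94 (SE 0.0870, limma adjusted p = 0.00196). No other receptor of the A class passed the test as higher.

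EPHB2 (ENSG00000133216, chromosome 1, 22710839 to 22921500 on GRCh38, plus strand), a receptor of the B class with a role in axon guidance and in the ordering of intestinal epithelium, had 11.7, 10.4 and 12.6 FPKM in shHOTAIR 1, 2 and 3, against 5.27, 6.01 and 5.10 FPKM in shCtrl 1, 2 and 3. The groups did not overlap, and the lowest shHOTAIR library stood well above the highest shCtrl library. The means were 11.5 ± 1.10 FPKM in shHOTAIR and 5.46 ± 0.486 FPKM in shCtrl (SD, n = 3 each; log2 change 0.96, SE 0.0957, limma adjusted p = 0.00237).

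EPHB6 (ENSG00000106123, chromosome 7, 142855061 to 142871094 on GRCh38, plus strand) differs from its relatives in lacking kinase activity, and signals through the receptors it pairs with. Its FPKM was 1.22, 1.14 and 1.39 in shHOTAIR 1, 2 and 3, against 0.050 in shCtrl 1 and 0.00926 in shCtrl 3, and it was listed at 0 in shCtrl 2. Expression was thus low in shHOTAIR and close to 0 in shCtrl, and no fold is given against such values. Its mean over the 6 libraries, 0.634 FPKM, kept it out of the main test. Fitted without the filter, among the 36141 genes detected in at least 1 library, its log2 change of FPKM + 1 was 1.14 (SE 0.0760, limma adjusted p = 0.00256). In that fit 4.55% of genes were called higher in shHOTAIR, and in 12.9% the groups did not overlap with shHOTAIR higher.

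The remaining receptors gave values within the spread of the repeats. EPHA1 (ENSG00000146904, chromosome 7, 143390289 to 143408892 on GRCh38, minus strand), the founding gene of the family, had 6.64, 7.10 and 5.53 FPKM in shHOTAIR 1, 2 and 3, against 4.66, 3.81 and 6.49 FPKM in shCtrl 1, 2 and 3. The highest shCtrl library lay within the range of shHOTAIR. The log2 change was 0.33 with a 95% interval from limma of -0.13 to 0.79 (adjusted p = 0.256), which holds both no change and a rise of the size seen in EFNA1. Without shCtrl 3 the log2 change was 0.50 (limma adjusted p = 0.0908), and over the libraries left out in turn it lay between 0.18 and 0.50 without passing. EPHA1 shares 82 of its 4733 exonic bases with ZYX on the other strand, and ZYX had 67.7 FPKM in shHOTAIR and 55.8 FPKM in shCtrl (group means). The strand setting of the counting was not given in the sources used here. Reads of these 2 genes in the shared bases therefore cannot be told apart.

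EPHA4 (ENSG00000116106, chromosome 2, 221418027 to 221574202 on GRCh38, minus strand), which binds ephrins of both classes, had 6.71, 8.55 and 5.34 FPKM in shHOTAIR 1, 2 and 3, against 7.24, 7.41 and 5.09 FPKM in shCtrl 1, 2 and 3. Its groups lay on top of each other. The log2 change was 0.048 (95% interval -0.45 to 0.54, limma adjusted p = 0.889). EPHB4 (ENSG00000196411, chromosome 7, 100802565 to 100827521 on GRCh38, minus strand), the receptor for ephrin-B2 on veins and on mammary epithelium, had 16.9, 23.0 and 24.7 FPKM in shHOTAIR 1, 2 and 3, against 20.3, 19.0 and 24.3 FPKM in shCtrl 1, 2 and 3. Both the lowest and the highest of these 6 values were in shHOTAIR. The log2 change was 0.012 (95% interval -0.39 to 0.42, limma adjusted p = 0.967). Both intervals hold changes in either direction. EPHB4 shares 69 of its 6435 exonic bases with SLC12A9 on the other strand, which had 10.9 FPKM in shHOTAIR and 11.1 FPKM in shCtrl (group means).

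Both member ligands of the B class rose. EFNB2 (ENSG00000125266, chromosome 13, 106489731 to 106535662 on GRCh38, minus strand), which encodes ephrin-B2, a ligand of EPHB4 and EPHB2 known from arteries, had 12.8, 11.5 and 12.8 FPKM in shHOTAIR 1, 2 and 3, against 3.99, 4.71 and 4.35 FPKM in shCtrl 1, 2 and 3. Every shHOTAIR value was far above the shCtrl range. The means were 12.4 ± 0.774 FPKM in shHOTAIR and 4.35 ± 0.364 FPKM in shCtrl (SD, n = 3 each), a ratio of 2.85, and the log2 change was 1.32 (SE 0.0820, limma adjusted p = 0.000768). An equal or larger log2 rise was seen in 484 of the genes tested, which is 3.04%. EFNB2 shares 1313 of its 5019 exonic bases with an antisense gene, AL138689.2, for which no FPKM was given. As the strand setting of the counting is not known, reads of these genes in the shared bases cannot be told apart.

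EFNB1 (ENSG00000090776, chromosome X, 68828997 to 68842147 on GRCh38, plus strand) encodes ephrin-B1, a ligand of EphB receptors with a role in the borders between tissues. It had 4.29, 5.08 and 4.88 FPKM in shHOTAIR 1, 2 and 3, against 1.80, 1.49 and 1.47 FPKM in shCtrl 1, 2 and 3. The groups were wide apart, with means of 4.75 ± 0.410 FPKM in shHOTAIR and 1.59 ± 0.182 FPKM in shCtrl (SD, n = 3 each). By the ratio of means, 3.00, EFNB1 changed the most of the tested members, while its log2 change of 1.15 (SE 0.109, limma adjusted p = 0.00206) was below that of EFNB2 because the added 1 weighs more on low values.

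The ligands of the A class were split. EFNA1 (ENSG00000169242, chromosome 1, 155127460 to 155134857 on GRCh38, plus strand), which encodes the main ligand of EPHA2, had 2.35, 2.74 and 3.25 FPKM in shHOTAIR 1, 2 and 3, against 1.23, 1.11 and 1.54 FPKM in shCtrl 1, 2 and 3. The groups did not overlap, and the log2 change was 0.72 (SE 0.149, limma adjusted p = 0.0216; means 2.78 ± 0.451 FPKM in shHOTAIR and 1.29 ± 0.220 FPKM in shCtrl, SD, n = 3 each). The call was lost without shHOTAIR 2 (limma adjusted p = 0.0543), without shCtrl 1 (0.0575), without shCtrl 2 (0.0543) and with no filter on low values (0.0526), while the log2 change stayed between 0.63 and 0.80 over the libraries left out. EFNA4 (ENSG00000243364, chromosome 1, 155063731 to 155069553 on GRCh38, plus strand), a ligand of EphA receptors that lies 0.0645 Mb from EFNA1 by gene centres, had 7.51, 7.0 and 6.87 FPKM in shHOTAIR 1, 2 and 3, against 5.88, 7.09 and 6.81 FPKM in shCtrl 1, 2 and 3. Its groups overlapped, and the log2 change was 0.10 (95% interval -0.11 to 0.31, limma adjusted p = 0.441). It shares 189 of its 1263 exonic bases with AL691442.1, which had 0.542 FPKM in both groups (group means).

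The members that rose differed in what surrounded them on the chromosome. The 50 nearest tested protein-coding genes of EFNB2, all on chromosome 13, had a median log2 change of 0.72, and 41 of them rose while 0 fell. Among all genes tested 11.5% rose and 12.4% fell. Of the 50, 3 had a larger log2 change than EFNB2. Around EPHA2 the median was 0.32, with 24 higher and 0 lower, and around EPHB2 it was 0.31, with 26 higher and 0 lower. The EPHA2 and EPHB2 genes lie 6.68 Mb apart on chromosome 1 and share 8 of these neighbours. Around EFNB1 on chromosome X the median was -0.14, with 4 higher and 8 lower. Around EFNA1 on chromosome 1 it was -0.02, with 4 higher and 6 lower. Around EPHB6 on chromosome 7, which was tested only without the filter, the median was -0.06. None of the 50 neighbours of EFNA1 had a log2 change above its own, although 44 of them are also neighbours of EFNA4.

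Centring each gene on its 50 neighbours in each library left 5 members called, all higher in shHOTAIR, where 15.6% of 15359 genes were called and 8.26% were called higher. The log2 change of EFNB2 became 0.57 (SE 0.0690, limma adjusted p = 0.00590) and that of EPHA2 0.59 (SE 0.0887, limma adjusted p = 0.0110), both well below the uncentred changes. That of EPHB2 became 0.64 (limma adjusted p = 0.0155). The log2 changes of EFNB1 (1.23, limma adjusted p = 0.00253) and EFNA1 (0.73, limma adjusted p = 0.0187) were as large as without centring. For EPHA4, among neighbours with a median of 0.23, the log2 change turned to -0.20 without passing (limma adjusted p = 0.548).

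**Figure D2:**
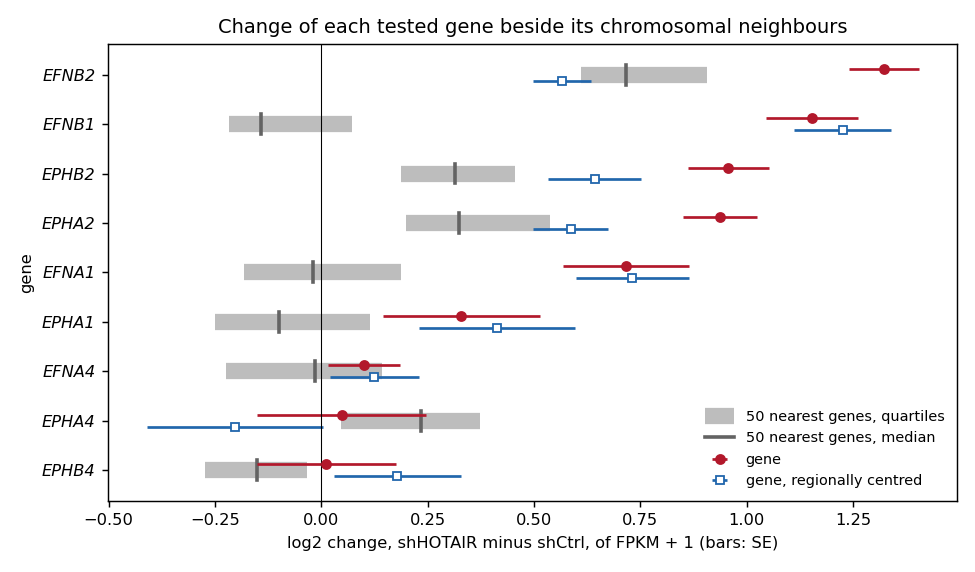
Log2 change of FPKM + 1, shHOTAIR minus shCtrl, of the 9 tested genes (red dots, bars are SE), the same after centring on their 50 nearest tested protein-coding genes (blue squares), and the quartiles and median of those neighbours (grey bars). The grey bar of EFNB2 lies far to the right, with a median of 0.72, and that of EFNB1 lies around -0.14.

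**Figure D3:**
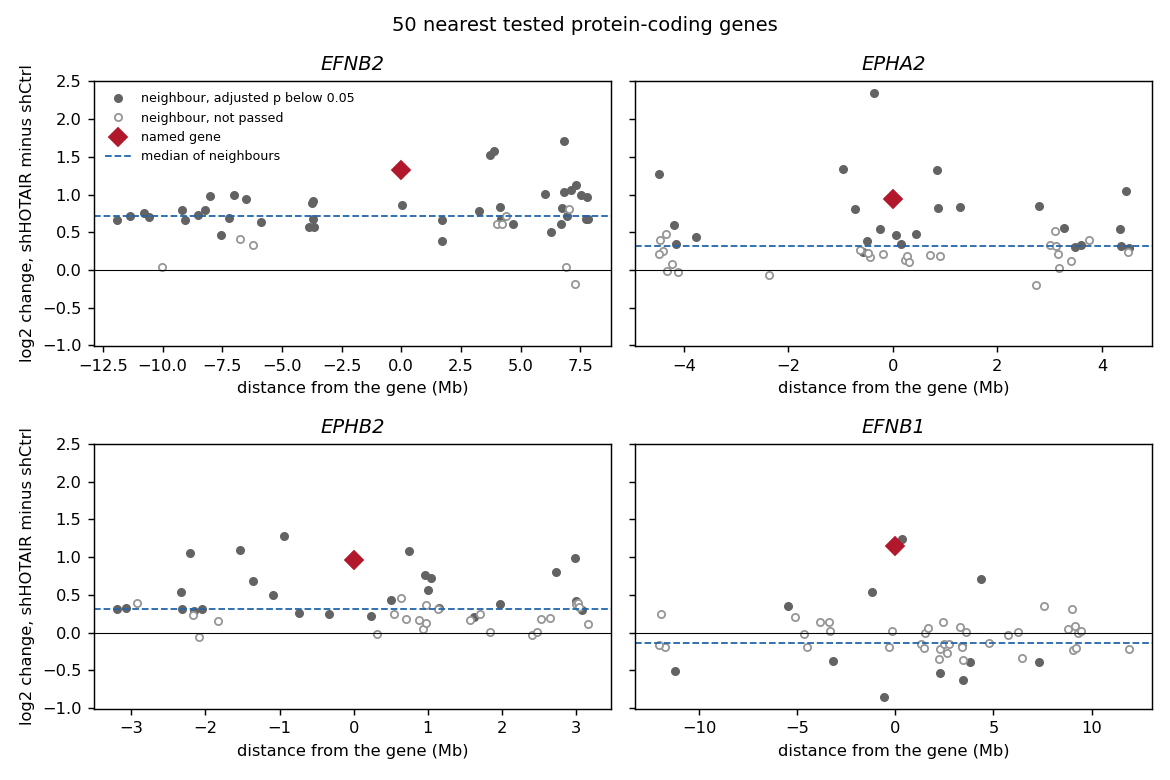
Log2 change of the 50 nearest tested protein-coding genes of EFNB2, EPHA2, EPHB2 and EFNB1 against their distance in Mb, with filled dots for an adjusted p below 0.05 and the named gene as a red diamond at 0. Of the 50 dots, 41 are called higher in the EFNB2 panel, while in the EFNB1 panel 4 are called higher and 8 lower.

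The order of levels showed which members lead the family in these cells. In shHOTAIR it ran EPHA2, EFNA5, EPHB4, EFNB2, EPHB2, EFNA4, EPHA4, EPHA1, EFNB1, EPHA3, EFNA3, EFNA1 and EPHB6 by mean FPKM. The ranges of EFNB2 and EPHB2 overlapped, as did those of EFNA4, EPHA4 and EPHA1 in turn, those of EFNB1 and EPHA3, and those of EFNA3 and EFNA1. In shCtrl it ran EPHA2, EFNA5, EPHB4, EFNA4, EPHA4, EPHA3, EPHB2, EPHA1, EFNB2, EFNA3, EFNB1 and EFNA1. There neighbours in the run from EFNA4 to EFNB2 overlapped, as did EFNA5 and EPHB4, and EFNB1 and EFNA1, while EFNB2 and EFNA3 did not. EFNB2 thus ranked 4 in shHOTAIR and 9 in shCtrl.

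Of the 12 family genes outside the list, EPHA3, EFNA3 and EFNA5 reached a mean of 1 FPKM. EFNA5, a ligand of the A class and the most abundant ephrin here, had 30.9 ± 3.31 FPKM in shHOTAIR and 27.4 ± 5.74 FPKM in shCtrl (SD, n = 3 each; limma adjusted p = 0.446). EFNA3 had 3.07 ± 0.466 FPKM in shHOTAIR and 3.56 ± 0.369 FPKM in shCtrl (limma adjusted p = 0.377). EPHA3 was the 1 gene of the 3 that passed. It fell to 4.55, 3.90 and 4.12 FPKM in shHOTAIR 1, 2 and 3, against 5.91, 5.46 and 5.73 FPKM in shCtrl 1, 2 and 3 (log2 change -0.37, SE 0.0799, limma adjusted p = 0.0245). That call held without shHOTAIR 1 but was lost when any of the other libraries was left out (limma adjusted p up to 0.0793) and with no filter on low values (0.0609), while centring on its neighbours gave a log2 change of -0.72 (limma adjusted p = 0.00470). EPHB3, at 0.112 to 0.180 FPKM in shHOTAIR and 0.00727 to 0.0211 FPKM in shCtrl, had no overlap between groups but stayed far below the level of the main test (limma adjusted p = 0.0204 without the filter). EPHA6, at 0.451 to 0.839 FPKM in shHOTAIR and 0.286 to 0.433 FPKM in shCtrl, also had groups that did not overlap (0.367 without the filter). EPHA8 was listed at 0 in all 6 libraries.

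Levels were also summed by class over the whole family. Ephrin-B genes summed to 16.6 to 17.7 FPKM in shHOTAIR and to 5.78 to 6.24 FPKM in shCtrl, and EFNB2 gave 69.2% to 74.8% of the sum in shHOTAIR and 68.9% to 75.6% in shCtrl. EphB receptor genes summed to 30.1 to 38.9 FPKM in shHOTAIR and to 25.3 to 29.4 FPKM in shCtrl. The share of EPHB4 in that sum was 56.3% to 66.0% in shHOTAIR and 75.3% to 82.6% in shCtrl, so EPHB2 and EPHB6 made up more of it in shHOTAIR. EphA receptor genes summed to 104 to 116 FPKM in shHOTAIR and to 62.0 to 71.9 FPKM in shCtrl, with 81.6% to 85.0% from EPHA2 in shHOTAIR and 70.8% to 73.1% in shCtrl. Ephrin-A genes summed to 40.4 to 48.1 FPKM in shHOTAIR and to 34.8 to 45.0 FPKM in shCtrl, where the ranges overlapped. These sums are descriptions and were not tested.

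The balance between ligand and receptor transcripts was compared in 4 pairs, without a test. The FPKM ratio of EFNB2 to EPHB4 was 0.757, 0.50 and 0.519 in shHOTAIR 1, 2 and 3, against 0.196, 0.248 and 0.179 in shCtrl 1, 2 and 3. It was higher in every shHOTAIR library, with the ligand called higher and the receptor not passing the test. The ratio of EFNA1 to EPHA2 was 0.0275, 0.0288 and 0.0343 in shHOTAIR 1, 2 and 3, against 0.0234, 0.0253 and 0.0337 in shCtrl 1, 2 and 3. Here the groups overlapped, and EPHA2 exceeded EFNA1 by a wide margin in all 6 libraries. Other ligands of the A class were more abundant than EFNA1, among them EFNA5 (30.9 FPKM in shHOTAIR and 27.4 FPKM in shCtrl, group means). The ratio of EFNB2 to EPHB2 was 1.02 to 1.11 in shHOTAIR and 0.757 to 0.853 in shCtrl, and that of EFNB1 to EPHB2 was 0.368 to 0.489 in shHOTAIR and 0.249 to 0.341 in shCtrl. Neither pair overlapped between groups. Ratios of FPKM compare transcript levels and say nothing of protein.

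**Figure D4:**
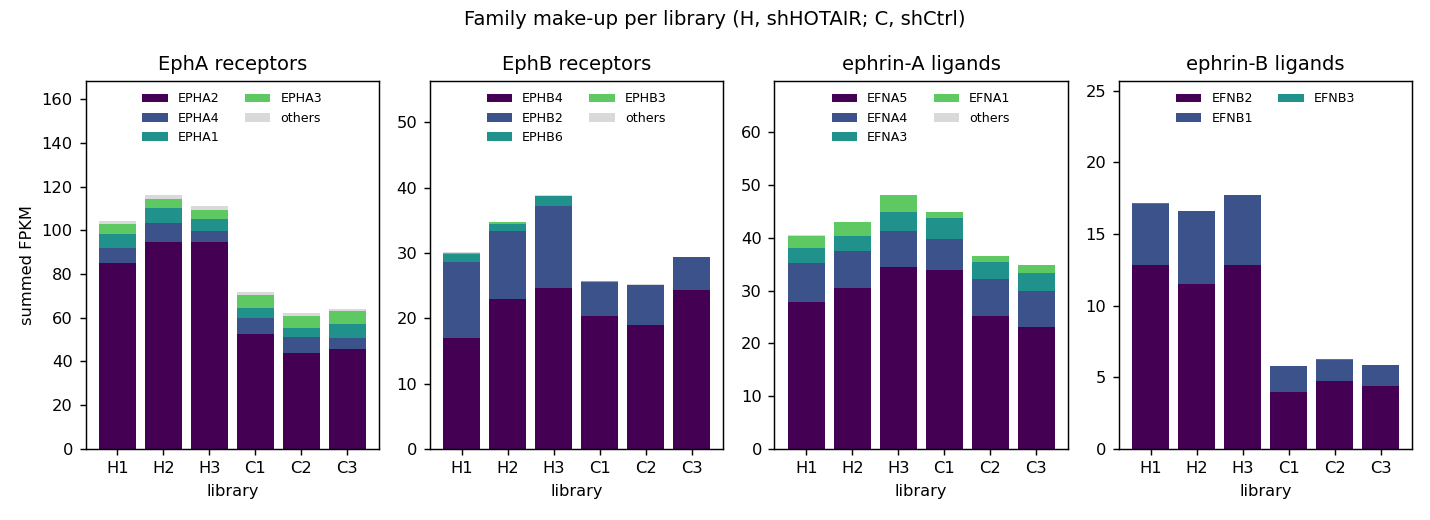
Summed FPKM of the EphA receptors, EphB receptors, ephrin-A and ephrin-B genes in shHOTAIR (H1 to H3) and shCtrl (C1 to C3), coloured by gene. The ephrin-B bars stand at 16.6 to 17.7 in shHOTAIR and at 5.78 to 6.24 in shCtrl, and EPHA2 fills most of each EphA bar.

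Genes that act with the family were read from 4 lists. Of 31 adaptors, kinases and exchange factors that work next to activated Eph receptors 28 were tested, of which 6 rose, 3 fell and 19 did not pass. Over all genes tested 11.5% rose and 12.4% fell, and the median log2 change of the list, -0.02, was close to that of all genes. TIAM1, an exchange factor for RAC1 that binds EPHA2 and ephrin-B tails, rose to 11 ± 0.362 FPKM in shHOTAIR, against 6.11 ± 0.243 FPKM in shCtrl (SD, n = 3 each; log2 change 0.75, limma adjusted p = 0.00135). The adaptor SHC1 (log2 change 0.34, limma adjusted p = 0.00655), the Rac-regulating chimaerin CHN2 (0.80, limma adjusted p = 0.0139) and the adaptor GRB10 (0.38, limma adjusted p = 0.0153) also rose. The Src-family kinase YES1 fell to 52.6 ± 4.09 FPKM in shHOTAIR, against 79.7 ± 4.4 FPKM in shCtrl (SD, n = 3 each; log2 change -0.59, limma adjusted p = 0.00497), with small falls in the adaptors CRK (-0.19) and ANKS1A (-0.23). The CRK and ANKS1A calls were lost whichever library was left out (limma adjusted p up to 0.0953 and 0.134). The CHN2 call was lost without shHOTAIR 3, shCtrl 2 or shCtrl 3 (up to 0.0522) and that of GRB10 without shHOTAIR 2, shHOTAIR 3, shCtrl 1 or shCtrl 2 (up to 0.0614). With regional centring the log2 change of GRB10 was 0.02 (limma adjusted p = 0.867), and CRK and ANKS1A did not pass either (0.467 and 0.229). The list as a whole then had 6 genes called higher and 1 called lower, where 8.26% of all genes were called higher.

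Of 11 small GTPases and actin effectors 3 rose, 1 fell and 7 did not pass, with a median log2 change of -0.00122. The shares over all genes tested were 11.5% higher and 12.4% lower. The focal adhesion adaptor PXN rose to 287 ± 13.8 FPKM in shHOTAIR, against 232 ± 1.38 FPKM in shCtrl (SD, n = 3 each; log2 change 0.31, limma adjusted p = 0.0119). The GTPases RAC1 (log2 change 0.20, limma adjusted p = 0.0353) and CDC42 (0.27, limma adjusted p = 0.0388) rose a little, and the cofilin kinase LIMK1 fell (-0.26, limma adjusted p = 0.0181). The RAC1 and CDC42 calls were lost whichever library was left out (limma adjusted p up to 0.0731 and 0.0858). Neither passed after centring on neighbours, where the log2 change of CDC42 was -0.051 (limma adjusted p = 0.661) and that of RAC1 0.21 (0.103). The LIMK1 call was lost without shHOTAIR 2, shHOTAIR 3, shCtrl 1 or shCtrl 3 (limma adjusted p up to 0.0590) and after centring (0.0601). After centring 2 genes of this list were called higher and 0 lower. RHOA, the GTPase most often tied to EphA signalling, did not pass (log2 change -0.09, limma adjusted p = 0.554).

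Of 8 proteins that bind ephrin-B tails or act on them 7 were tested, 0 rose, 1 fell and 6 did not pass (median log2 change -0.12). The polarity protein PARD6A, which ephrin-B1 binds, fell to 1.74 ± 0.340 FPKM in shHOTAIR, against 4.05 ± 0.297 FPKM in shCtrl (SD, n = 3 each; log2 change -0.89, limma adjusted p = 0.00681). Of 14 proteases, phosphatases and ligases that shed the ligands or switch off the receptors 12 were tested, and 6 rose, 0 fell and 6 did not pass (median log2 change 0.27). Beside these lists, 11.5% of all genes tested rose and 12.4% fell. With regional centring 5 genes of the shedding and turnover list were called higher and 0 lower. PTPRJ, a receptor phosphatase that acts on EPHA2, had 23.7, 23.1 and 19.7 FPKM in shHOTAIR 1, 2 and 3, against 8.41, 7.77 and 7.17 FPKM in shCtrl 1, 2 and 3. Its groups were far apart (log2 change 1.40, SE 0.0943, limma adjusted p = 0.000947). The phosphatase PTPN1 (log2 change 0.47, limma adjusted p = 0.00499), the gamma-secretase subunit NCSTN (0.40, limma adjusted p = 0.00766) and the membrane protease MMP14 (0.42, limma adjusted p = 0.0109), which cleaves EPHA2, rose as well.

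**Figure D5:**
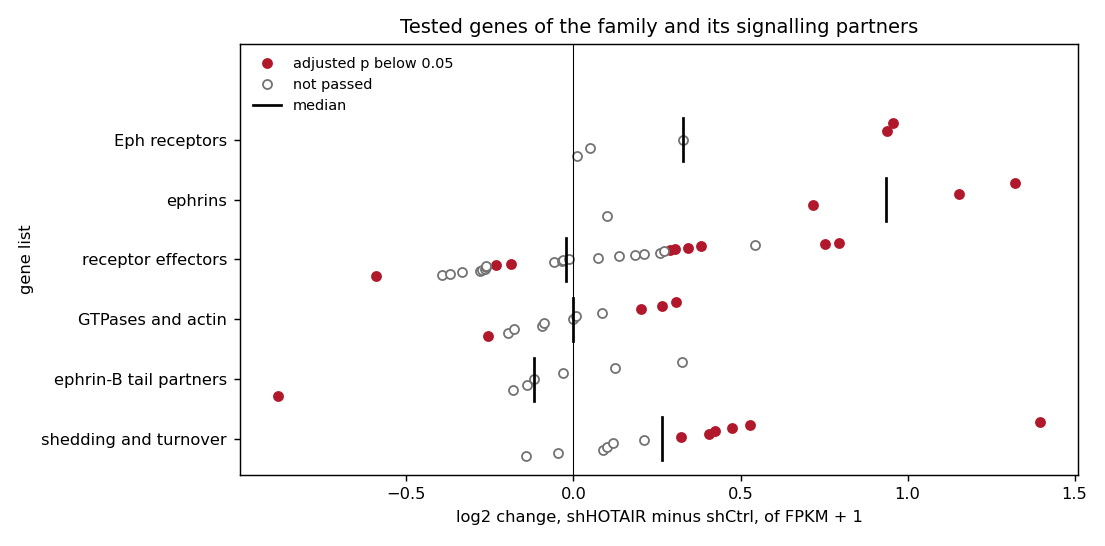
Log2 change of FPKM + 1, shHOTAIR minus shCtrl, of the 9 tested members and of the tested genes of 4 partner lists. Red dots have a limma adjusted p below 0.05, open dots did not pass and black bars are medians. EPHA3, EFNA3 and EFNA5, which were tested but are not members, are not drawn. The median of the 4 member ephrins is 0.93 and the receptor effector median -0.02.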

How the data were processed

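Poly(A)-selected RNA of 3 shHOTAIR and 3 shCtrl libraries was sequenced, per the labels' protocols. The authors deposited FPKM values per Ensembl gene. TopHat2 2.0.13, DESeq and GRCh38 are named in the submitters' processing notes, with no role or order. The program, annotation and strand setting behind the FPKM were not given in the sources used here, and the absolute depth is unknown. Of 65198 rows 56807 matched GENCODE 29 by identifier. The members and lists were chosen with earlier results of these data known. All 10 members, the other family genes, and up to 4 called genes of each partner list in each direction, by p, are named; RHOA was added after its values were seen. limma 3.58.1 in R 4.3.3 (trend, no block) was fitted to log2(FPKM + 1) where the mean reached 1 FPKM, and was tested on simulated data. Intervals are 95% limits from the moderated SE. Relative depth was the commonest ratio, within 0.01 on the log2 scale, of low values (0.001 to 0.1 FPKM) to those of shCtrl 1. At most 0.00628% of tested genes had equal FPKM above 0 in any pair of libraries. Tables and figures used Python 3.11.15 with pandas 2.3.3 and matplotlib 3.10.9. Alternatives were pseudocounts, filters, scalings, eBayes settings, regional centring, a replicate block and each library left out.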

Additional observations from a re-analysis of the deposited data

How the results depend on the processing

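The calls of EPHA2, EPHB2, EFNB1 and EFNB2 held, in the same direction, under every alternative in which the gene was tested. The number of members called was 5 under all alternatives but a minimum mean of 5 FPKM, where EFNA1 and EFNB1 were not tested and it was 3, a replicate block (4), and leaving out a library (4 to 5). With no filter it was again 5, with EPHB6 in and EFNA1 out. The count over all genes, 3797, was 2393 with regional centring, 1740 with a replicate block and 2470 to 3159 with a library left out, lowest without shCtrl 3 (2470) and shCtrl 1 (2508). The block ended the EFNA1 call (limma adjusted p = 0.0632) and those of EPHA3, SHC1, GRB10, CRK, ANKS1A, PXN, RAC1, CDC42 and LIMK1. Same-numbered libraries did not deviate together (correlations -0.0221, 0.00696 and -0.0307 for numbers 1, 2 and 3). With so few libraries these values cannot show whether same-numbered repeats were grown or prepared together. Changes that did not pass turned sign in EPHA4 with regional centring (-0.20) and with a library left out (-0.10 to 0.19), and in EPHB4 with a library left out (-0.091 to 0.17). Regional centring turned CDC42 to -0.051. The cause was not tested. With 3 libraries a group, and depth known only in relative terms, the number of fragments behind low values such as those of EPHB6 is not known.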
